A study of Homo sapiens with 16 samples.

Results

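The S phase and mitosis genes described here are 43 genes taken by symbol from a list that was drawn up with earlier results of these data known. The rule itself uses no measured value. Their products license and fire replication origins, copy the DNA, drive the cyclin-dependent kinases and build the mitotic spindle. By role they are licensing and origin-firing genes (MCM2, MCM3, MCM4, MCM5, MCM6, MCM7, CDC6, CDT1, GINS1 and GINS2), the fork clamp and nucleotide supply (PCNA, RRM1, RRM2, TYMS and TK1), cyclins with CDK1 (CCNE1, CCNE2, CCNA2, CCNB1, CCNB2 and CDK1) and transcription factors (E2F1, E2F2, MYBL2 and FOXM1). Those of mitosis are kinases, checkpoint and exit genes (AURKA, AURKB, PLK1, BUB1, BUB1B, CDC20, UBE2C and BIRC5) and spindle, centromere and chromosome proteins (KIF4A, KIF11, KIF20A, KIF23, CENPE, CENPF, NUSAP1, TPX2, TOP2A and MKI67). All 43 were rows of the deposited count table of 28374 genes, and all 43 passed the filter on low counts that left 18575 genes to test. RNA was measured in CCD-1070Sk, an established line of normal human skin fibroblasts. Every group was starved of serum, the controls included, so starvation itself was not compared with growth. A group of 3 libraries received the mitogen EGF (epidermal growth factor) at 30 ng/ml and a group of 2 received TPA at 100 nM, each for 1 h, and another group of 3 received H89 alone at 10 µM. TPA is a phorbol ester that activates protein kinase C. H89 inhibits protein kinase A and the MSK kinases, and went on 30 min before a mitogen. EGF+H89 and TPA+H89 had 2 libraries each, and the untreated starved control had 3. H89 alone carries the label of 0 h, so cells of the combined groups may have spent longer in H89, and this cannot be told apart from the mitogen. Of the 4 deposited controls, 2 held equal counts at 100% of 19340 genes and were counted once. Whether replicates are separate cultures is not in the labels, and the p-values below rest on the spread among these libraries alone, which may be technical.

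When fibroblasts lose serum they leave the cell cycle. In such quiescent cells the pocket proteins RB1, RBL1 and RBL2 hold the E2F transcription factors, and the DREAM complex represses cell cycle promoters. Promoters of S phase genes typically carry E2F sites, while promoters of mitotic genes typically carry a CHR element with CCAAT boxes, through which DREAM and later MYBL2 and FOXM1 act. Mitogens induce immediate-early genes within the first hour, and S phase transcripts of stimulated fibroblasts are known to accumulate many hours later.

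The promoter stretches below are examples of motifs whose frequency differs between licensing and spindle genes. A link between these motifs and the levels in these cells was not tested. The stretches are RefSeq sequence of GRCh38.p14 for the 120 bases before the annotated start, 5′ to 3′ on the strand of the gene. Capitals mark matches, on either strand, to the E2F words TTTCCCGC, TTTGGCGC and TTTCGCGC, to the CHR word TTTGAA and to CCAAT. MCM6, a subunit of the replicative helicase, PCNA, the sliding clamp of the polymerases, and CDT1, which loads the helicase, are replication genes. CCNB2 is a mitotic cyclin, PLK1 a mitotic kinase, KIF4A a chromosome-bound kinesin and BUB1 a kinase of the spindle checkpoint.
MCM6, chr2:135876444-135876563, minus strand: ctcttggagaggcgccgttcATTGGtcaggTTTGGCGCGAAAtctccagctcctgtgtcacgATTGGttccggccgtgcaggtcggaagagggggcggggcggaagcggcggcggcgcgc
PCNA, chr20:5126623-5126742, minus strand: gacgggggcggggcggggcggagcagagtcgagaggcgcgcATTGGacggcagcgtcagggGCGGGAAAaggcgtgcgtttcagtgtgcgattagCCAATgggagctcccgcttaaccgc
CDT1, chr16:88803669-88803788, plus strand: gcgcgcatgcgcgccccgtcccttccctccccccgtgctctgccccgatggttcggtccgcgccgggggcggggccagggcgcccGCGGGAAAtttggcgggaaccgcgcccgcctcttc
CCNB2, chr15:59105026-59105145, plus strand: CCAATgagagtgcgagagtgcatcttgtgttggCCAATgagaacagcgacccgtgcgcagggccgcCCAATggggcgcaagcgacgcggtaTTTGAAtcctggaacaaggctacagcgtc
PLK1, chr16:23678769-23678888, plus strand: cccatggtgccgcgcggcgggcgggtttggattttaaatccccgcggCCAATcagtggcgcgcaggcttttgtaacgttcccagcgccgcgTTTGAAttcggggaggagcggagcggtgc
KIF4A, chrX:70289984-70290103, plus strand: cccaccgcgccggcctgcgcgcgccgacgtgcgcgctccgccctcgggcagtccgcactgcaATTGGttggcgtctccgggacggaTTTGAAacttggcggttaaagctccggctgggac
BUB1, chr2:110678064-110678183, minus strand: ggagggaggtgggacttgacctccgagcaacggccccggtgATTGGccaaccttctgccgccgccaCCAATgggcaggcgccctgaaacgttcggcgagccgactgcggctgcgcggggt

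An E2F word lay in each of the 3 replication promoters shown, and a CHR word with at least 1 CCAAT in those of CCNB2, PLK1 and KIF4A. The BUB1 stretch held 2 CCAAT words and neither of the other motifs. Over the whole RefSeq windows, 250 bases before to 50 after the start, 35 of the 43 genes were matched. MCM4, MCM5, CCNE2, FOXM1, AURKA, UBE2C, BIRC5 and TPX2 were not. E2F words occurred in 8 of 8 promoters of licensing and origin-firing genes and CHR words in 0 of 8. The fork and nucleotide genes divided less clearly, with an E2F word in 2 of 5 (PCNA and TYMS), a CHR word in 1 of 5 (RRM1) and neither in RRM2 and TK1. Cyclins with CDK1 had an E2F word in 1 of 5 and a CHR word in 2 of 5, and the transcription factors in 2 of 3 and 0 of 3. Among the spindle, centromere and chromosome proteins the counts were 1 of 9 and 7 of 9, and among the mitotic kinases and checkpoint genes 0 of 5 and 3 of 5. In all 35116 promoters of this length E2F words occurred in 2.74%, CHR words in 15.2% and CCAAT in 34.6%. In member promoters 5 matches overlapped another match, 2 of them a match to a different motif. The plot of motif matches also covers genes outside the 43: of 17 other S phase promoters 6 held an E2F word and 0 a CHR word, and of 27 other mitosis promoters 2 held an E2F word and 21 a CHR word. A match is a description of letters and says nothing of binding in these cells. Only the exact words were searched, so a promoter without a match may still hold a variant of the site.

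**Figure D1:**
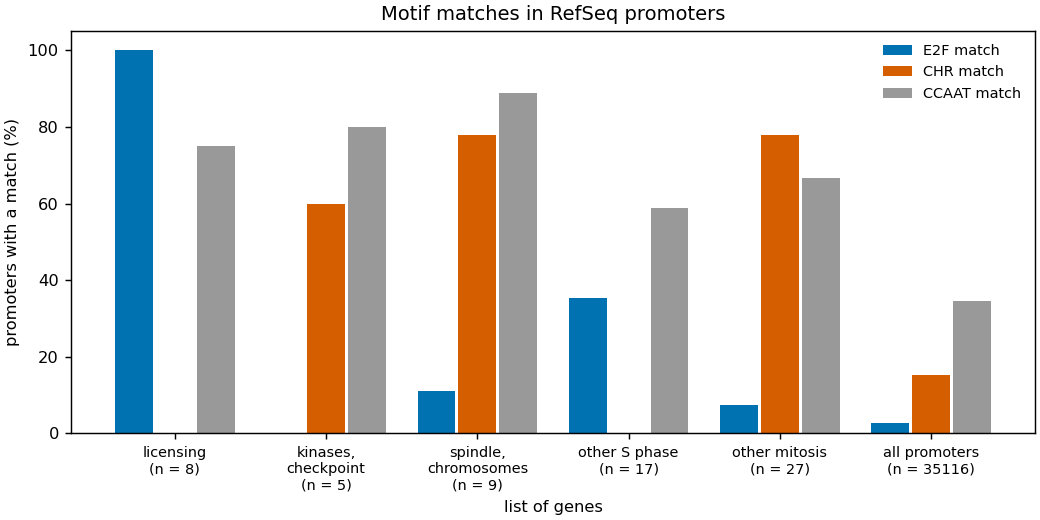
Percent of RefSeq promoters (y axis) with an E2F, CHR or CCAAT match in 3 role groups of the 43 genes, in 2 lists of other cell cycle genes and in all promoters (x axis, n under each label). E2F matches stand at 100% for licensing genes, and CHR matches at 77.8% for spindle and chromosome genes and for other mitosis genes, against 15.2% of all promoters.

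Library totals ran from 7527026 counts in TPA+H89 1 to 130075914 in TPA 2, and the 43 genes together took 0.0368% to 0.0635% of them. Levels are given as CPM, counts scaled to library size with edgeR's TMM factors. The libraries fell into 3 sets by their counts. In EGF 1 and control 1, genes counted once outnumbered genes with 2 counts. In 6 libraries (EGF 2, control 2 and replicate 1 of every other group) the ribosomal RNA genes RNR1 and RNR2 took 11.7% to 30.4% of the counts. The other 7 had 0 counts at both. These are called the first pair, the RNR-rich set and the RNR-free set. The median correlation with the other libraries was lowest in EGF 1, control 1 and TPA 2 (0.865, 0.885 and 0.936). Marker levels are CPM of the library total without TMM factors. The 9 fibroblast markers, among them COL1A1, COL1A2 and VIM, stood at 108 (FAP) to 24000 CPM (COL1A2) over the libraries. Of markers of other cell types, 4 of 5 of keratinocytes (KRT5, KRT14, KRT1 and TP63), 2 of 4 of endothelial cells (PECAM1 and CDH5), 2 of 4 of melanocytes (MLANA and TYR) and 4 of 5 of leukocytes stayed under 1 CPM in every library. The others were KRT10 at 6.28 to 44.4 CPM, TEK at 1.21 to 4.34, VWF at up to 2.34, PMEL at up to 1.75, CD14 at up to 1.52 and DCT at up to 1.16.

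The lowest levels of the 43 genes were found in the first pair. Taken as the median over the genes of log2 CPM, each gene centred on its mean over the 15 libraries, the level was 0.33 ± 0.16 with H89 (mean ± SD, n = 3), 0.37 ± 0.052 with TPA+H89 (n = 2), 0.20 ± 0.30 with TPA (n = 2), -0.11 ± 0.011 with EGF+H89 (n = 2), -0.22 ± 0.38 with EGF (n = 3) and -0.24 ± 0.42 in controls (n = 3). EGF 1 at -0.66 and control 1 at -0.73 lay below all others, which spanned -0.12 to 0.48. In that pair 19 of the 43 genes lay below each of the other 13 libraries, against 12.5% of all tested genes, and 1, the helicase subunit MCM3, lay above them, against 18.9%. By role, 8 of 10 spindle and chromosome genes lay below all other libraries (median difference -1.21 on the log2 scale), 4 of 6 cyclins with CDK1 (-1.29) and 3 of 10 licensing genes (-0.26). The EGF and control groups thus each hold 1 library in which mitotic transcripts were low. In bulk RNA, fewer cycling cells and less RNA per cell cannot be told apart. The same 2 libraries were set apart from the rest by their counts over all genes, so a technical difference cannot be told apart from either.

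**Figure D2:**
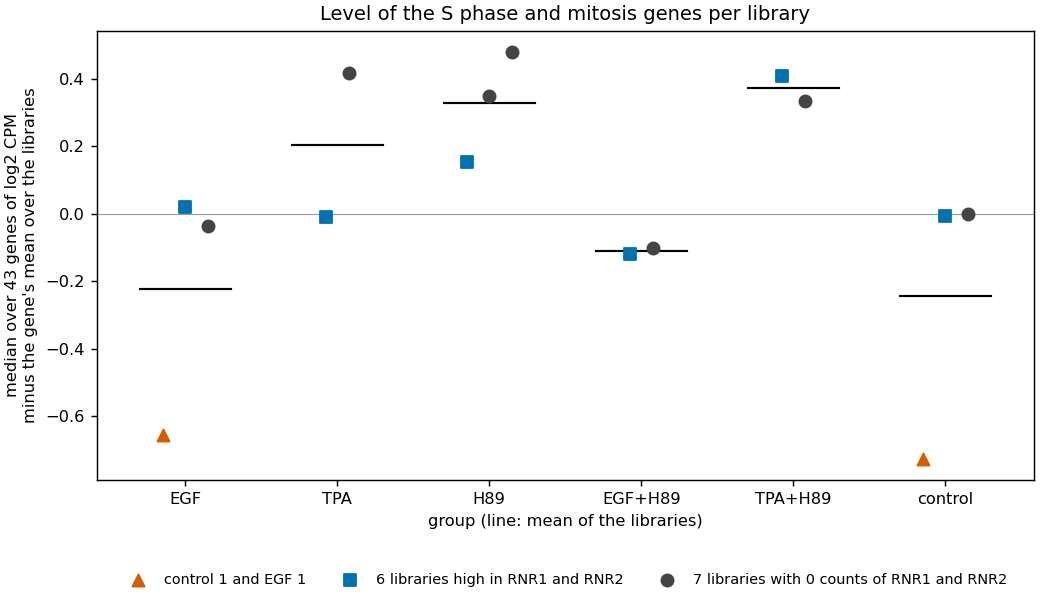
Median over the 43 genes of log2 CPM minus each gene's mean over the libraries (y axis), 1 point per library, by group (x axis), with lines at group means and symbols for the 3 sets of libraries. EGF 1 at -0.66 and control 1 at -0.73 stand apart, both EGF+H89 libraries lie below the 3 H89 libraries, and both TPA+H89 libraries lie at 0.33 and 0.41.

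Transcripts of all 43 genes were found in these starved cells. Divided by exon length, so that genes can be compared, the mean over the 15 libraries was highest for PCNA (30.2 CPM per kb), for RRM1, the large subunit of ribonucleotide reductase (15.6), and for the helicase subunit MCM7 (9.72). It was lowest for the transcription factors E2F2 (0.115) and MYBL2 (0.404) and for the proliferation marker MKI67 (0.631). At such levels counts were few in the shallowest library: TPA+H89 1 held 2 reads of E2F2, 6 each of CDT1 and TYMS, 9 of PLK1, 11 each of UBE2C and CCNE2, and 13 each of KIF4A and MYBL2. Reads of TYMS, which makes thymidylate, and of BIRC5, a subunit of the chromosomal passenger complex, may include those of overlapping genes on the other strand, since the strand setting of the counting is not given.

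Among licensing genes, MCM2, a helicase subunit, was at 35.2, 14.5 and 15.1 CPM with EGF, 16.2 and 33.6 with TPA, 15.9, 19.0 and 22.9 with H89, 16.8 and 16.5 with EGF+H89, 12.2 and 18.5 with TPA+H89, and 30.0, 13.8 and 20.5 in controls. The 3 highest values were EGF 1, TPA 2 and control 1, the libraries of lowest correlation with the rest, and the groups overlapped. MCM5, of the same helicase, was at 11.9, 11.4 and 12.8 CPM with EGF, 10.97 and 16.9 with TPA, 12.9, 14.95 and 13.4 with H89, 12.9 and 12.5 with EGF+H89, 10.4 and 14.2 with TPA+H89, and 12.4, 9.90 and 13.8 in controls, with TPA 2 highest and control 2 lowest. MCM7 was at 38.8, 34.8 and 34.2 CPM with EGF, 25.3 and 21.7 with TPA, 39.2, 34.7 and 33.0 with H89, 38.1 and 39.3 with EGF+H89, 47.2 and 34.4 with TPA+H89, and 43.6, 28.1 and 39.9 in controls. Both TPA libraries lay below all others for MCM7. Of the fork genes, PCNA was at 37.9, 45.6 and 49.0 CPM with EGF, 35.8 and 30.2 with TPA, 58.0, 50.3 and 38.1 with H89, 56.4 and 55.4 with EGF+H89, 33.7 and 52.5 with TPA+H89, and 26.2, 54.3 and 42.2 in controls, lowest in control 1 and next in TPA 2. The range within the controls covered most treated values of MCM2 and PCNA.

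Of the cyclins, CCNE1, which acts with CDK2 at the entry to S phase, was at 2.99, 4.44 and 5.22 CPM with EGF, 3.32 and 2.43 with TPA, 4.03, 4.61 and 4.02 with H89, 6.29 and 5.06 with EGF+H89, 3.83 and 5.96 with TPA+H89, and 2.91, 5.16 and 3.93 in controls. Its relative CCNE2 was at 0.959, 2.48 and 3.24 CPM with EGF, 2.32 and 1.03 with TPA, 2.94, 2.96 and 1.72 with H89, 2.35 and 2.79 with EGF+H89, 2.00 and 3.20 with TPA+H89, and 0.521, 2.46 and 2.24 in controls, with EGF 1, TPA 2 and control 1 lowest. CCNA2, the cyclin of S phase and G2, was at 1.87, 6.30 and 5.75 CPM with EGF, 7.59 and 13.5 with TPA, 8.11, 8.53 and 10.4 with H89, 6.87 and 5.12 with EGF+H89, 4.92 and 7.44 with TPA+H89, and 0.760, 6.60 and 6.97 in controls. EGF 1 and control 1 were again lowest and TPA 2 highest. CCNB1, the main partner of CDK1 in mitosis, was at 8.79, 12.3 and 10.4 CPM with EGF, 11.3 and 12.5 with TPA, 14.2, 15.1 and 18.5 with H89, 10.99 and 12.9 with EGF+H89, 30.4 and 20.8 with TPA+H89, and 5.23, 12.6 and 9.34 in controls. Its highest values were both TPA+H89 libraries. CDK1 itself was at 3.23, 7.00 and 6.05 CPM with EGF, 4.43 and 2.96 with TPA, 8.15, 7.25 and 7.82 with H89, 7.01 and 6.11 with EGF+H89, 8.75 and 9.18 with TPA+H89, and 1.54, 8.52 and 5.75 in controls, lowest in control 1 and at or above 7.25 CPM in all 5 libraries given H89 alone or H89 with TPA. Of the transcription factors, E2F1, which activates S phase genes, was at 3.75, 4.58 and 3.79 CPM with EGF, 2.57 and 8.73 with TPA, 3.60, 5.76 and 4.63 with H89, 3.98 and 3.96 with EGF+H89, 4.01 and 4.42 with TPA+H89, and 2.89, 3.72 and 4.33 in controls, and only TPA 2 stood clear of the others. FOXM1, the activator of late mitotic genes, was at 1.76, 5.42 and 3.76 CPM with EGF, 6.48 and 9.56 with TPA, 5.76, 6.81 and 7.47 with H89, 5.06 and 4.46 with EGF+H89, 7.47 and 8.19 with TPA+H89, and 5.82, 4.92 and 3.16 in controls, lowest in EGF 1.

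Of the genes of the chromosomes, TOP2A, which untangles sister DNA, was at 9.23, 28.1 and 25.3 CPM with EGF, 27.2 and 28.3 with TPA, 34.4, 37.8 and 34.9 with H89, 24.6 and 18.6 with EGF+H89, 47.9 and 31.5 with TPA+H89, and 6.76, 31.3 and 26.99 in controls. The antigen of proliferating cells MKI67 was at 3.93, 8.17 and 6.01 CPM with EGF, 10.6 and 7.99 with TPA, 8.15, 10.3 and 11.9 with H89, 4.30 and 6.29 with EGF+H89, 12.9 and 9.32 with TPA+H89, and 5.34, 7.26 and 7.59 in controls. In both, EGF 1 and control 1 were low, and the EGF+H89 libraries lay below the H89 libraries. The heat map of centred levels shows the same columns for the remaining genes: blue for most mitotic rows in EGF 1 and control 1 and in EGF+H89, and red for most mitotic rows with H89 and TPA+H89. TPA 2 was the highest library for 13 of the 43 genes, among them CDT1, TK1, CDC20 and UBE2C, and TPA+H89 1 for 11, among them CCNB1, AURKB, KIF20A and MKI67. Over all tested genes these 2 libraries were highest for 21.2% and 12.5%.

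**Figure D3:**
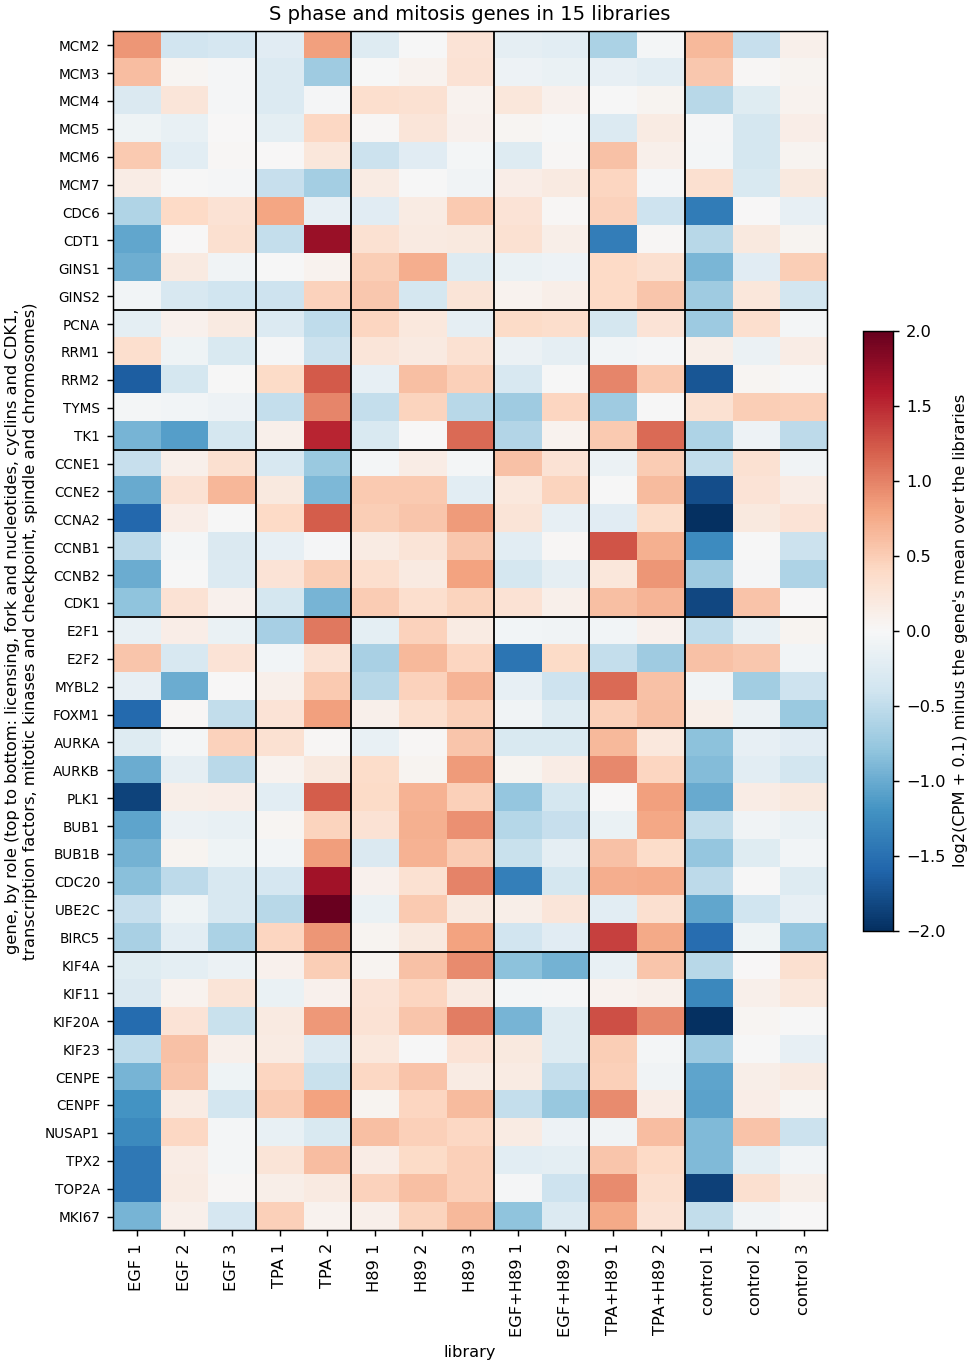
Level of each of the 43 genes (rows, by role) in 15 libraries (columns, by group) as log2(CPM + 0.1) minus the gene's mean, red above and blue below the mean, with lines between groups and between roles. Control 1 was lowest for 17 genes and EGF 1 for 11, while TPA 2 was highest for 13 and TPA+H89 1 for 11.

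With EGF for 1 h the 43 genes lay on both sides of control. Their median log2 fold change was 0.010, beside 0.024 over all tested genes, with 22 of 43 above 0 against 53.2% of all genes. In edgeR (quasi-likelihood test, Benjamini-Hochberg adjustment over all 18575 genes, called at 0.05) 0 of the 43 were called, where the percentage called over all genes was 0.0269. An unadjusted p under 0.05 was also reached by 0, against 1.63% of all genes. DESeq2 called 0, against 0.371% of all genes, and edgeR with a term for the set of libraries 0, against 0.221%. Every EGF library lay above every control for 0 genes, against 2.97% of all genes, and below for 1, TYMS, against 1.99%. Differences ran from -0.52 to 0.51. The lowest p belonged to AURKA, the kinase of the spindle poles, at 10.9, 12.8 and 18.1 CPM with EGF, against 7.32, 11.6 and 11.2 in controls. Its log2 fold change was 0.47 ± 0.29 (SE; edgeR adjusted p = 1.00, 95% interval -0.15 to 1.10), and it was higher with EGF in all 3 pairs of the same set, by 0.58, 0.14 and 0.69, but the groups overlapped. KIF23, a kinesin of the midbody, was at 9.37, 20.2 and 14.3 CPM with EGF, against 8.06, 13.4 and 11.9 in controls, a log2 fold change of 0.40 ± 0.31 (SE; edgeR adjusted p = 1.00, 95% interval -0.28 to 1.07), and these groups overlapped too. Without EGF 2 the value of KIF23 was 0.095. Set by set the median difference was 0.080 for EGF 1 minus control 1, 0.0088 for EGF 2 minus control 2 and -0.033 for EGF 3 minus control 3. Among the other genes of the cycle, 15 of 28 mitosis genes and 13 of 20 S phase genes lay above 0, and 0 were called.

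With TPA for 1 h most mitotic transcripts lay above control, mainly in 1 of the 2 libraries. The median log2 fold change of the 43 genes was 0.40, beside -0.021 over all genes, and 34 of 43 lay above 0 against 48.7% of all genes. The kinase and checkpoint genes had the highest median (0.83, 8 of 8 above 0), then the transcription factors (0.70), the spindle genes (0.36), licensing (0.21), the cyclins with CDK1 (0.17) and the fork genes (0.013). With a term for the set of libraries these medians were 0.49, 0.56, 0.14, 0.28, -0.097 and -0.14 in the same order. By edgeR 0 of the 43 were called, where the percentage called over all genes was 0.415. At an unadjusted p under 0.05 there were 6 higher and 2 lower, against 13.2% of all genes in either direction. DESeq2 called 1, BIRC5 (adjusted p = 0.0355), against 2.84% of all genes, and edgeR with a term for the set called 0, against 1.25%.

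BIRC5 was at 10.7 and 14.7 CPM with TPA, against 2.72, 7.498 and 4.61 in controls, with no overlap, and its edgeR log2 fold change was 1.37 ± 0.40 (SE; edgeR adjusted p = 0.209, 95% interval 0.51 to 2.23). UBE2C, the ubiquitin-conjugating enzyme of the anaphase-promoting complex, was at 1.55 and 9.50 CPM with TPA, against 1.09, 1.74 and 2.07 in controls. Its log2 fold change was 1.77 ± 0.57 (SE; edgeR adjusted p = 0.250), and the groups overlapped because TPA 1 lay among the controls. CDC20, the activator of that complex, showed the same split, at 3.50 and 14.5 CPM with TPA, against 3.06, 4.44 and 3.71 in controls, a log2 fold change of 1.27 ± 0.51 (SE; edgeR adjusted p = 0.332). E2F1 was higher in the fit (0.64 ± 0.42 SE, edgeR adjusted p = 0.477), while TPA 1 had the lowest value of any library. Thymidine kinase TK1 was at 10.7 and 28.8 CPM with TPA, against 6.45, 9.24 and 6.87 in controls, without overlap, and its log2 fold change was 1.40 ± 0.49 (SE; edgeR adjusted p = 0.286). RRM2, the small subunit of ribonucleotide reductase, differed by 1.26 ± 0.54 (SE; edgeR adjusted p = 0.358) and CCNB2 by 0.83 ± 0.37 (SE; edgeR adjusted p = 0.368), both without overlap. A pair of helicase subunits lay on the other side of 0. MCM7 differed by -0.66 ± 0.24 (SE; edgeR adjusted p = 0.293) and MCM3 by -0.71 ± 0.27 (SE; edgeR adjusted p = 0.315), both below every control.

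TPA libraries lay wholly above the controls for 14 genes, against 9.6% of all tested genes, and wholly below for 2, against 10.1%. Set by set the median difference was 0.11 for TPA 1 minus control 2, with 24 of 43 above 0, and 0.42 for TPA 2 minus control 3, with 30. Without TPA 2 alone the median of the 43 was 0.14, TK1 stood at 0.52, RRM2 at 0.78, and UBE2C (-0.068), CDC20 (-0.087) and E2F1 (-0.50) changed sign. Without TPA 2, EGF 1 and control 1 the median was -0.049. Without TPA 1 edgeR called 2 of the 43, UBE2C and CDC20, and 1187 of all 20038 genes then tested, which is 5.92%. TPA 2 was the deepest library, and the part that its depth played was not tested. With a term for the set of libraries the median of the 43 was 0.29, and the part of the set was not tested beyond that. Among the other genes, 23 of 28 mitosis genes lay above 0 with a median of 0.37. The lowest p among them was that of the centromere histone CENPA, at 1.45 ± 0.68 (SE; edgeR adjusted p = 0.385). Of 20 other S phase genes 9 lay above 0, with a median of -0.047, and the lowest p was that of the clamp loader subunit RFC4, at -0.94 ± 0.29 (SE; edgeR adjusted p = 0.225). Of these lists edgeR called 0 in either direction and DESeq2 1, an S phase gene that was lower. The pocket protein partners and DREAM subunits of lowest p, E2F4 (-0.77 ± 0.34 SE, edgeR adjusted p = 0.368) and LIN37 (-0.85 ± 0.38 SE, edgeR adjusted p = 0.374), were lower. For both genes control 1 and EGF 1 lay above every other library, so control 1 raised the control mean.

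With H89 alone, transcripts of mitotic genes were higher than in starved controls and none was called. The median log2 fold change of the 43 was 0.56, beside -0.046 over all genes, and 37 of 43 lay above 0 against 45.2% of all genes. All 8 kinase and checkpoint genes (median 0.77), all 10 spindle and chromosome genes (0.62) and all 6 cyclins with CDK1 (0.69) lay above 0, while licensing genes had a median of 0.25 with 6 of 10 above 0, and fork genes 0.25 with 4 of 5. By edgeR 0 of the 43 were called and the percentage called over all genes was 0. At an unadjusted p under 0.05 there were 5 higher and 0 lower, against 3.27% of all genes. DESeq2 called 0 of the 43, against 0.012% of all genes. For 15 genes every H89 library lay above every control, against 2.85% of all genes, and for 0 below, against 4.25%. Of the 15, 7 were among the 8 kinase and checkpoint genes.

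BIRC5 was at 8.30, 9.07 and 13.9 CPM with H89, against 2.72, 7.498 and 4.61 in controls, a log2 fold change of 1.09 ± 0.37 (SE; edgeR adjusted p = 1.00, 95% interval 0.30 to 1.88). AURKB, its partner kinase in the chromosomal passenger complex, was at 2.39, 1.88 and 3.36 CPM with H89, against 0.956, 1.56 and 1.39 in controls, a log2 fold change of 0.97 ± 0.36 (SE; edgeR adjusted p = 1.00). Neither overlapped the controls. CCNB2 differed by 0.91 ± 0.34 (SE; edgeR adjusted p = 1.00) and CCNB1 by 0.82 ± 0.31 (SE; edgeR adjusted p = 1.00). BUB1 was at 5.40, 7.30 and 8.42 CPM with H89, against 3.11, 4.199 and 4.01 in controls, a log2 fold change of 0.90 ± 0.34 (SE; edgeR adjusted p = 1.00), again without overlap. Of the genes always shown, TOP2A differed by 0.72 ± 0.49 (SE; edgeR adjusted p = 1.00) and CCNE2 by 0.56 ± 0.58 (SE; edgeR adjusted p = 1.00). Leaving out control 1 gave TOP2A 0.29 and CCNE2 0.11. Without control 1 and EGF 1 the median was 0.30, with 40 of 43 above 0, and set by set it was 0.17 for H89 1 minus control 2, 0.40 for H89 2 minus control 3 and 0.50 for H89 3 minus control 3. In all 3 of those pairs 22 of the 43 were higher, against 14.5% of all genes, and 2 lower, against 16.1%. Other mitosis genes followed with 26 of 28 above 0 (median 0.50). The lowest p among them was that of PRC1, the bundler of the central spindle, at 0.64 ± 0.25 (SE; edgeR adjusted p = 1.00). Other S phase genes stood at 14 of 20 (0.23), led by the helicase factor GINS3 at 0.72 ± 0.35 (SE; edgeR adjusted p = 1.00), and 0 of either list were called.

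When EGF was given to H89-treated cells, mitotic transcripts lay below those of H89 alone. The median log2 fold change of the 43 was -0.47, beside -0.016 over all genes, and 6 of 43 lay above 0 against 45.1% of all genes. All 10 spindle genes (median -0.64), all 8 kinase and checkpoint genes (-0.69) and all 4 transcription factors (-0.53) lay below 0. Licensing genes had a median of -0.092, with 8 of 10 below 0. For 20 genes both EGF+H89 libraries lay below all 3 H89 libraries, against 11.9% of all tested genes, and for 1, CCNE1, above, against 10.7%; 8 of the 20 were among the 10 spindle genes and 5 among the 8 kinase and checkpoint genes. By edgeR 0 of the 43 were called, where the percentage called over all genes was 0.0269. At an unadjusted p under 0.05 there were 0 higher and 5 lower, against 1.53% of all genes. DESeq2 called 0, against 0.33% of all genes, and edgeR with a term for the set 0, against 0.269%.

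KIF4A had the lowest p of the 43. It was at 1.45 and 1.32 CPM with EGF+H89, against 2.74, 4.02 and 5.20 with H89, where EGF alone gave 2.21, 2.29 and 2.42 CPM and controls 1.76, 2.64 and 3.31. The EGF+H89 values were the lowest of all 15 libraries and did not overlap those of any other group. Its log2 fold change against H89 was -1.53 ± 0.41 (SE; edgeR adjusted p = 0.745, 95% interval -2.41 to -0.65), with an adjusted p of 0.0646 by DESeq2. The promoter shown above for KIF4A holds 1 CHR and 1 CCAAT word. BUB1 was at 2.94 and 3.19 CPM with EGF+H89, against 5.40, 7.30 and 8.42 with H89, a log2 fold change of -1.20 ± 0.40 (SE; edgeR adjusted p = 1.00, 95% interval -2.06 to -0.34), with no overlap. CDC20 was at 1.67 and 3.50 CPM with EGF+H89, against 4.74, 5.54 and 8.97 with H89, a log2 fold change of -1.30 ± 0.54 (SE; edgeR adjusted p = 1.00). MKI67 differed by -0.93 ± 0.36 (SE; edgeR adjusted p = 1.00) and the kinetochore protein CENPF, at 9.54 and 7.78 CPM with EGF+H89, against 13.8, 17.9 and 20.6 with H89, by -1.01 ± 0.45 (SE; edgeR adjusted p = 1.00). These 3 did not overlap either. These 5 genes were named after their values were seen, as all those under an unadjusted p of 0.05.

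The difference stood in both sets that hold these groups, the RNR-rich and the RNR-free set. The median was -0.24 for EGF+H89 1 minus H89 1, -0.36 for EGF+H89 2 minus H89 2 and -0.52 for EGF+H89 2 minus H89 3, and 26 of the 43 were lower in all 3 pairs, against 18.4% of all genes, while 2 were higher, against 16.7%. KIF4A differed in those pairs by -0.90, -1.58 and -1.94, and BUB1 by -0.87, -1.18 and -1.39. The last 2 pairs share EGF+H89 2. Neither control 1 nor EGF 1 enters this comparison, and with both left out of the fit the median was -0.47. Of the other mitosis genes 27 of 28 lay below 0 with a median of -0.51, and 15 were lower without overlap. PRC1 differed by -0.75 ± 0.29 (SE; edgeR adjusted p = 1.00) and GTSE1, a microtubule-binding protein, by -0.97 ± 0.42 (SE; edgeR adjusted p = 1.00). Other S phase genes had a median of -0.047 and pocket and DREAM genes -0.086, and 0 of the 3 lists were called. This comparison and that of H89 with control share the 3 H89 libraries, so their values are not independent.

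Read by promoter, the 11 of the 43 genes with a CHR word and no E2F word had a median log2 fold change of -0.74 in EGF+H89 against H89, all 11 below 0. The 12 with an E2F word and no CHR word had -0.068, with 8 below 0, and the 10 with neither had -0.55, with 9 below 0. In the lists of other cycle genes, the 21 with a CHR word alone had -0.36 (20 below 0), the 9 with an E2F word alone -0.053 (7 below 0) and the 22 with neither -0.16 (19 below 0). In H89 against control the same 3 classes of the 43 had 0.64, 0.096 and 0.83. These are descriptions with no test. BUB1 is among the 10 with neither word.

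**Figure D4:**
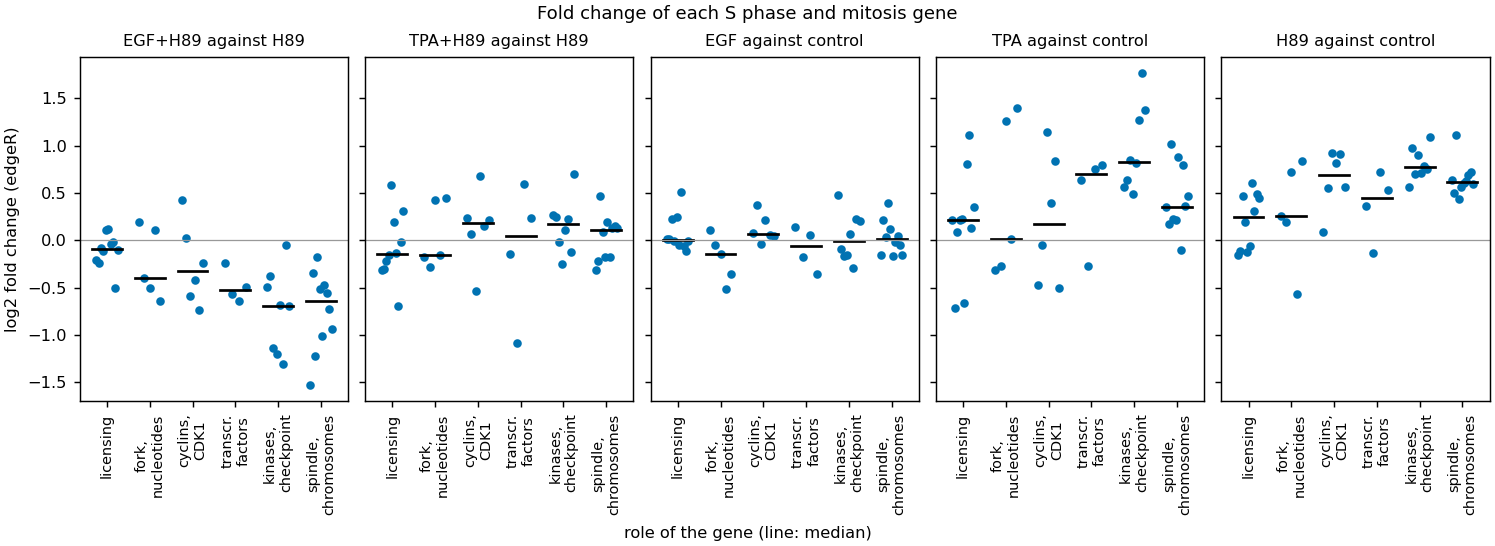
edgeR log2 fold change (y axis) of each of the 43 genes by role (x axis; line: median) in 5 comparisons. In EGF+H89 against H89 all 10 spindle genes and all 8 kinase and checkpoint genes lie below 0, with medians of -0.64 and -0.69, and in H89 against control all of them lie above 0, with medians of 0.62 and 0.77; the panels with H89 share its 3 libraries.

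Set against EGF alone, EGF+H89 showed a median near 0 and of either sign. The median of the 43 was 0.062, beside -0.073 over all genes, with 25 of 43 above 0 against 42.8%, and it was -0.14 and -0.028 in the 2 pairs of the same set (EGF+H89 1 minus EGF 2 and EGF+H89 2 minus EGF 3). EdgeR called 0 of the 43, where the percentage called over all genes was 0, and 0 passed an unadjusted p of 0.05, against 1.67% of all genes. DESeq2 called 0, against 0.004%. Both EGF+H89 libraries lay above all EGF libraries for 4 genes, against 7.6% of all genes, and below for 3, against 10.1%. KIF4A had the lowest p, at 1.45 and 1.32 CPM with EGF+H89, against 2.21, 2.29 and 2.42 with EGF without overlap, a log2 fold change of -0.74 ± 0.40 (SE; edgeR adjusted p = 1.00, 95% interval -1.59 to 0.12). AURKB, at 1.90 and 2.02 CPM with EGF+H89, against 0.870, 1.59 and 1.22 with EGF, differed by 0.69 ± 0.40 (SE; edgeR adjusted p = 1.00), also without overlap. Among other mitosis genes 14 of 28 lay above 0, and the mitotic kinesin KIF15 came first by p (-1.10 ± 0.44 SE, edgeR adjusted p = 1.00).

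With TPA+H89, CCNB1 was higher than with TPA in both libraries, and MCM7 lay within the range of the controls in 1 library and above it in the other. The median of the 43 was 0.17, beside -0.017 over all genes, with 27 of 43 above 0 against 44.8%. EdgeR called 0 of the 43, where the percentage called over all genes was 0. With no adjustment, 2 higher and 1 lower had a p under 0.05, against 7% of all genes, and DESeq2 called 0, against 0.0836%. The TPA+H89 libraries lay wholly above the TPA libraries for 12 genes, against 10.6% of all genes, and wholly below for 2, against 11.1%. MCM7 was at 47.2 and 34.4 CPM with TPA+H89, against 25.3 and 21.7 with TPA, a log2 fold change of 0.79 ± 0.26 (SE; edgeR adjusted p = 0.713, 95% interval 0.23 to 1.36), with 43.6, 28.1 and 39.9 CPM in controls. CCNB1 was at 30.4 and 20.8 CPM with TPA+H89, against 11.3 and 12.5 with TPA, a log2 fold change of 1.10 ± 0.38 (SE; edgeR adjusted p = 0.713, 95% interval 0.29 to 1.92), and in the pairs of the same set it was higher by 1.43 and 0.73. CDT1 was at 1.09 and 3.04 CPM with TPA+H89, against 2.14 and 10.2 with TPA, a log2 fold change of -1.51 ± 0.68 (SE; edgeR adjusted p = 0.713). The TPA libraries lay far apart for CDT1, TPA+H89 1 held only 6 reads of it, and without TPA 2 its value was 0.037. Of the genes always shown, CDK1 differed by 1.28 ± 0.59 (SE; edgeR adjusted p = 0.716), CCNE1 by 0.79 ± 0.39 (SE; edgeR adjusted p = 0.719) and MCM2 by -0.69 ± 0.50 (SE; edgeR adjusted p = 0.831). Without TPA 2 the value of MCM2 was -0.064. The cyclins and CDK1 had a median of 0.73, with 5 of 6 above 0. Of the other mitosis genes the securin PTTG1 came first by p (1.71 ± 0.50 SE, edgeR adjusted p = 0.713), and of the other S phase genes RFC4 (0.83 ± 0.31 SE, edgeR adjusted p = 0.713) and the CDT1 inhibitor GMNN (0.86 ± 0.37 SE, edgeR adjusted p = 0.713).

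TPA+H89 against H89 gave a median of 0.087, beside 0 over all genes, with 23 of 43 above 0 against 47.2%. EdgeR called 0, where the percentage called over all genes was 0.0969, an unadjusted p under 0.05 was reached by 0, against 3.89% of all genes, and DESeq2 called 0, against 0.46%. Without overlap 4 genes were higher, against 9.92% of all genes, and 6 lower, against 10.9%. Kinase and spindle genes had medians of 0.17 and 0.11 here, beside -0.69 and -0.64 in EGF+H89 against H89. Both comparisons use the same H89 libraries.

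Against EGF, TPA gave a median of 0.41, beside -0.034 over all genes, with 30 of 43 above 0 against 48%. EdgeR called 0, where the percentage called over all genes was 0. With no adjustment, 7 higher and 2 lower had a p under 0.05, against 13.4% of all genes. DESeq2 called 1, TK1, against 1.73% of all genes, and edgeR with a term for the set 0, against 0.334%. Without overlap 12 were higher, against 9.71% of all genes, and 3 lower, against 11.1%. TK1 was at 10.7 and 28.8 CPM with TPA, against 5.20, 4.58 and 7.82 with EGF, without overlap, a log2 fold change of 1.75 ± 0.49 (SE; edgeR adjusted p = 0.301, 95% interval 0.70 to 2.81) and an adjusted p of 0.0434 by DESeq2. FOXM1 was at 6.48 and 9.56 CPM with TPA, against 1.76, 5.42 and 3.76 with EGF, a log2 fold change of 1.14 ± 0.41 (SE; edgeR adjusted p = 0.336), and BIRC5 differed by 1.17 ± 0.40 (SE; edgeR adjusted p = 0.326), both without overlap. CDC20 (1.57 ± 0.51 SE, edgeR adjusted p = 0.312), UBE2C (1.55 ± 0.56 SE, edgeR adjusted p = 0.338), RRM2 (1.40 ± 0.54 SE, edgeR adjusted p = 0.342) and CENPF (1.04 ± 0.43 SE, edgeR adjusted p = 0.355) were the other 4 that were higher. MCM3 (-0.72 ± 0.27 SE, edgeR adjusted p = 0.338) and MCM7 (-0.61 ± 0.24 SE, edgeR adjusted p = 0.342) were lower. CCNA2 differed by 1.19 ± 0.69 (SE; edgeR adjusted p = 0.430) and PCNA by -0.42 ± 0.31 (SE; edgeR adjusted p = 0.524). TPA 1 minus EGF 2 had a median of -0.061 and TPA 2 minus EGF 3 one of 0.54, so the pooled value held in 1 of the 2 sets. Without TPA 2 alone the median was 0.11, TK1 stood at 0.87, CDC20 at 0.21, UBE2C at -0.29, RRM2 at 0.91 and CCNA2 at 0.71. Without TPA 1 edgeR called 3 of the 43, CDC20, TK1 and UBE2C, and 1165 of all 20038 genes then tested, which is 5.81%.

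Whether the difference made by a mitogen was another with H89 was tested by the interactions, the difference of mitogen with H89 against H89 minus that of mitogen against control. The possible longer time in H89 of the combined groups enters both interactions and cannot be told apart from the mitogen. For EGF the median was -0.39, beside -0.037 over all genes, and 5 of 43 lay above 0 against 45.7%. All 8 kinase genes (-0.93) and all 10 spindle genes (-0.66) lay below 0. EdgeR called 0 of the 43, where the percentage called over all genes was 0. Without adjustment 2 had a p under 0.05, both lower, against 0.258% of all genes. These were KIF4A, at -1.37 ± 0.52 (SE; edgeR adjusted p = 1.00, 95% interval -2.51 to -0.24), and AURKA, at -0.97 ± 0.43 (SE; edgeR adjusted p = 1.00). For TPA the median was also -0.39, beside 0.014 over all genes, with 8 of 43 above 0 against 50.8%. Here too all 8 kinase genes (-0.72) and all 10 spindle genes (-0.39) lay below 0. EdgeR called 0, where the percentage called over all genes was 0, with MCM7 higher (0.85 ± 0.33 SE, edgeR adjusted p = 0.900) and UBE2C lower (-1.90 ± 0.82 SE, edgeR adjusted p = 0.900) at an unadjusted p under 0.05, against 4.78% of all genes. MCM5 differed by -0.36 ± 0.38 (SE; edgeR adjusted p = 0.977). DESeq2 called 0 in both. Without TPA 2 alone the median of the TPA interaction was -0.17, UBE2C stood at -0.059 and MCM5 at -0.018, and without TPA 2, EGF 1 and control 1 the median was 0.017 and UBE2C stood at 0.19. The 2 interactions share the H89 and control libraries. Each subtracts the same difference of H89 against control, which lay above 0 for all 8 kinase and all 10 spindle genes. The shared sign of the 2 interactions is therefore not a separate result for TPA. Against H89 alone, kinase and spindle medians were 0.17 and 0.11 with TPA+H89, and -0.69 and -0.64 with EGF+H89.

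**Figure D5:**
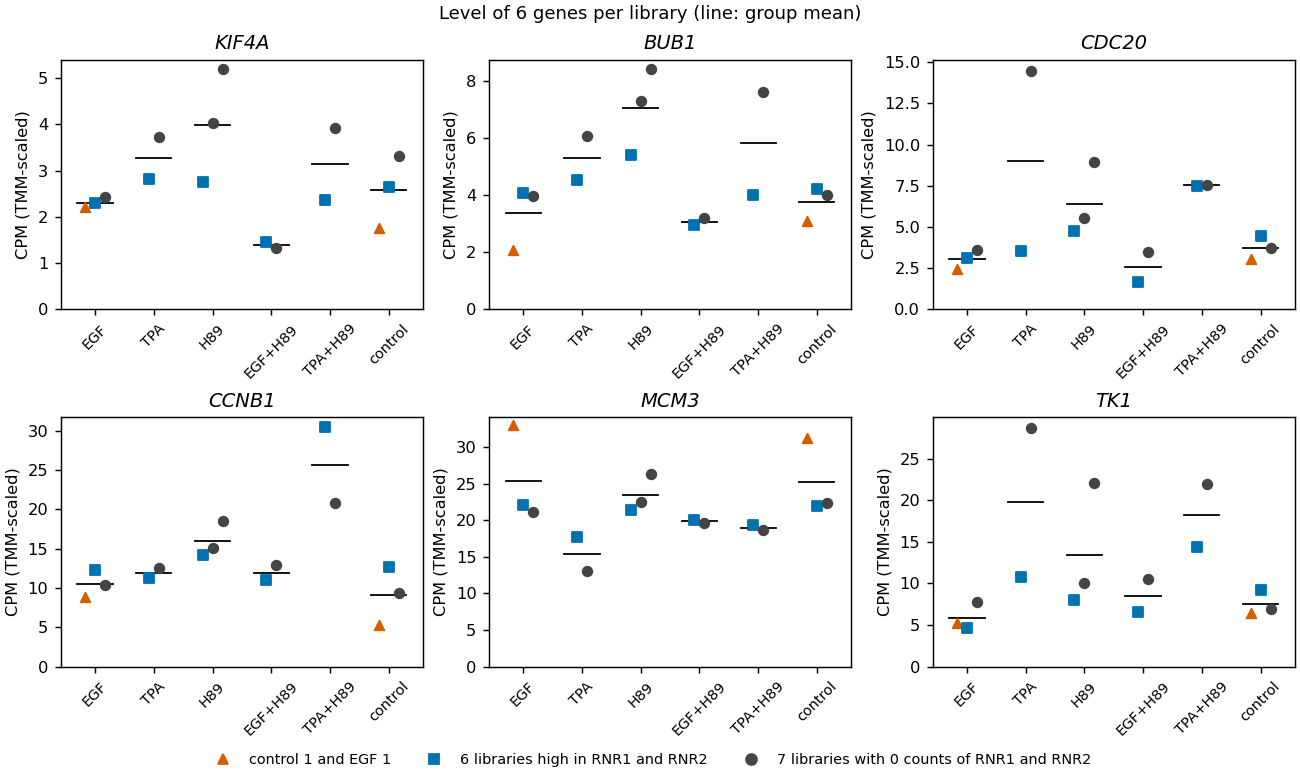
Level in CPM after TMM scaling (y axis, from 0) of 6 genes in each library, by group (x axis), with lines at group means and symbols for the sets of libraries. KIF4A lies lowest in both EGF+H89 libraries (1.45 and 1.32 CPM), CDC20 and TK1 are high in 1 of 2 TPA libraries (14.5 and 28.8 CPM), CCNB1 is highest in both TPA+H89 libraries (30.4 and 20.8 CPM), and MCM3 is highest in EGF 1 and control 1 (33.1 and 31.3 CPM).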

How the data were processed

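The deposited values are raw counts of reads per gene symbol, and the authors' table holds 16 libraries. Per the labels' protocols, ribosomal RNA was depleted and strand-specific libraries were sequenced on platforms not tied to samples. HOMER, hg19 and GRCh37 appear in the submitters' processing notes. Aligner, annotation and strand setting were not given in the sources used here. The 43 genes, the lists of other genes and the markers were chosen with earlier results of these data known.

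Analysis used R 4.3.3. All 15 libraries were fitted with a term per group in edgeR 4.0.16 (filterByExpr with smallest count 10, TMM, quasi-likelihood test), and Benjamini-Hochberg adjustment covered every tested gene of a comparison, in 10 comparisons, called at 0.05. DESeq2 1.42.0 was the other tool. For differences within sets, 2 was the prior count of log2 CPM. Full statistics were given for the 2 genes of lowest p in 5 comparisons, for 12 set genes and for every gene under an unadjusted p of 0.05. The scripts were tested on simulated data. Other settings were another scaling, other filters, fewer groups, the copied control, a term for the set, a block for runs of sample names, and libraries left out. The SE and intervals cover the spread between libraries, and read totals limit genes of few counts. Exon lengths are from GENCODE 29.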

Additional observations from a re-analysis of the deposited data

How the results depend on the processing

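The medians of the 43 genes above 0.1 in size kept their sign in every fit on all 15 libraries, and edgeR called 0 of the 43 in each. With a term for the set, EGF+H89 against EGF stood at -0.14. Over all genes edgeR called 5, 77 and 5 in EGF against control, TPA against control and EGF+H89 against H89, and DESeq2 62, 488 and 55. DESeq2 called 1 in TPA against control and 1 in TPA against EGF. The runs of sample names were used as a replicate block; the labels do not call them batches, and numbers given in accession order pair no samples. With that replicate block the median was 0.11 in TPA against EGF, -0.39 in EGF+H89 against H89 and 0.32 in H89 against control, and 0 of the 43 were called. Over all settings other than single libraries left out, DESeq2 included, calls among all genes ran from 0 to 289, 0 to 55 and 0 to 3 in these comparisons. Where few genes were called at all, 0 of the 43 says little about the members. Without EGF 1, control 1 and TPA 2 (chosen after seeing the data) the median was -0.049 in TPA against control, 0.028 in TPA against EGF and 0.017 in the TPA by H89 interaction. There UBE2C stood at -0.30, CDC20 at -0.21 and E2F1 at -0.65 in TPA against control, CDT1 at 0.088 in TPA+H89 against TPA, and UBE2C at -0.38 in TPA against EGF and 0.19 in the interaction. Without TPA 2, H89 3 and TPA+H89 2 the median in TPA against EGF was 0.11, UBE2C stood at -0.070, CDC20 at -0.089 and E2F1 at -0.50 in TPA against control, and UBE2C at -0.29 in TPA against EGF. Within sets the median was 0.17 in H89 1 minus control 2 and -0.061 in TPA 1 minus EGF 2. Leaving out 1 library at a time gave 0 to 2 calls in TPA against control, 0 to 1 (UBE2C) in TPA+H89 against TPA and 0 to 3 in TPA against EGF, the upper count each time without TPA 1, where the lone TPA library is assumed to vary like the other groups and edgeR called 1187, 719 and 1165 of all 20038 tested genes (5.92%, 3.59% and 5.81%). The medians ran from 0.11 to 0.59 in TPA against EGF and from -0.69 to -0.24 in the EGF by H89 interaction. In TPA against control UBE2C ran from -0.068 to 2.53, CDC20 from -0.087 to 1.93 and E2F1 from -0.50 to 1.24. CDT1 ran from -2.50 to 0.037 in TPA+H89 against TPA, and UBE2C from -0.29 to 2.30 in TPA against EGF. Each named gene that changed sign did so without TPA 2, and beyond that the cause was not tested. With 2 or 3 libraries a group and as few as 2 reads of a gene in the shallowest, small differences were not detectable.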

Other observations

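Genes of the repressor side were given no comparison of their own above. The 11 pocket protein and DREAM genes (RB1, RBL1, RBL2, E2F4, E2F5, TFDP1, LIN9, LIN37, LIN52, LIN54 and RBBP4) had a median log2 fold change of -0.053 in EGF against control, 0.16 in H89 against control, 0.18 in EGF+H89 against EGF and -0.12 in TPA+H89 against H89, with 0 called in each. In TPA+H89 against H89 the 20 other S phase genes had a median of -0.20, with 5 above 0, and the 28 other mitosis genes 0.14, with 16 above 0.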
